A study of Mus musculus with 8 samples.

Results

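Potassium channel genes were taken from the count table as every row whose gene symbol consists of Kcn, a lower case stem and a number, which gave 92 of the 54735 genes listed. They comprise the pore-forming subunits of voltage-gated, calcium- and sodium-activated, inwardly rectifying and tandem-pore (K2P) channels together with auxiliary subunits whose symbols have the same form. RNA was sequenced from punches of the ventral tegmental area (VTA) of DBA2/J mice labelled male and aged postnatal day 21, with 1 library per mouse. SS pups (social stress, n = 4) had been exposed to a threatening adult mouse for 30 min per day between postnatal days 14 and 21, and CTR pups (n = 4) were unhandled controls. The study's methods place collection on the day after the last exposure, a day later than the labelled age. The labels name no transgene or drug for either group, and left and right punches of a mouse were combined. The libraries are named by group and replicate number, and the numbers present are 1, 2, 3 and 5 for CTR and 2, 3, 4 and 5 for SS.

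Potassium channels let potassium leave or enter the cell and so set the resting potential, the shape of the action potential and the interval between spikes. In midbrain dopamine neurons, A-type channels built from Kcnd3 with KChIP partners slow pacemaking, small-conductance calcium-activated (SK) channels built from Kcnn3 regularise it, and GIRK channels containing Kcnj6 carry the inhibition by dopamine D2 and GABA-B receptors. Fast-spiking and long-range projection neurons use Kv3 channels (Kcnc genes), axons carry Kv1 channels with a Kcnab2 beta subunit, and astrocytes take up potassium through Kir4.1 (Kcnj10).

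Pore-forming members share a short coding stretch, the selectivity filter, that separates them from the auxiliary subunits. Coding sequences of all 92 members were read from GENCODE M21 transcripts (GRCm38, the C57BL/6J reference) and searched for 5 codons in a row that encode threonine or serine, then valine, isoleucine or leucine, then glycine, then tyrosine, phenylalanine or leucine, then glycine. All 77 pore-forming members held it. Of these, 65 held 1 copy and 12 held 2 copies, all of the latter being K2P genes, whose subunits carry a pair of pore loops. The K2P genes Kcnk1 and Kcnk7 held 1 copy, so the search did not match both pore loops of every K2P gene. None of the 15 auxiliary members held it. The stretches below are those of an A-type, a sodium-activated and a GIRK channel gene described in the results, each with 12 bases of coding sequence on either side, and the capitals mark the 5 filter codons.
Kcnd3 (Kv4.3): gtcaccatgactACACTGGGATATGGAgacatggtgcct
Kcnt1 (Slack): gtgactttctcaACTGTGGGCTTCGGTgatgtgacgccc
Kcnj6 (GIRK2): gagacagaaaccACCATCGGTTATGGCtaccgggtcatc
The coding sequences of Kcna5 and Kcna6 shared an exact run of 91 bases, longer than a sequencing read of the study, so reads within it cannot be placed on either gene and both values are uncertain to that extent.

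Library totals ranged from 20036086 to 47319997 counts, and members took 0.404% to 0.501% of them. CTR-1 and CTR-2 lacked many low genes: among 1989 genes averaging 1 to 3 CPM (counts scaled to a library of 1 M), these libraries held 434 and 354 at 0 against 1 to 94 elsewhere. CTR-5 and SS-5 held 14997 and 6551 counts of Xist and at most 3 of Y-linked genes, which goes against their label of male. CTR-5 also held 252 CPM of choroid plexus and ependyma markers (14.7 to 35.3 in the other libraries) and 1034 CPM of cortex and hippocampus excitatory neuron markers (252 to 579). The counts and fold changes below were also computed without CTR-1 and CTR-2 and in the 6 libraries with male-typical sex transcripts.

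Of the 92 members, 77 passed the filter on low counts, 8 fell below it and 7 had no count in any library. The 7 were Kcna7, Kcne1, Kcne3, Kcnj1, Kcnk16, Kcnk18 and Kcnmb3. Each had an upper limit of 3 counts per library, which covers counting error only. Levels were compared between genes as CPM per kb of annotated exon. On this scale Kcnj10 was the highest, with 139 CPM per kb on average over the 8 libraries. Kcnab2 followed with 63.6, and its highest library (73.3) lay below every library of Kcnj10. Other abundant members were Kcnc4 with 39.9, Kcna6 (Kv1.6) with 29.5, Kcnk1 (TWIK-1) with 28.6, Kcnc1 with 27.7 and Kcna2 (Kv1.2) with 26.7 CPM per kb. From Kcna6 to Kcna2, each overlapped the next in that order (mean ± SD) in at least 1 group. Kcnj9 (GIRK3) reached 23.3 CPM per kb, compared with 8.84 for Kcnj3 (GIRK1), 1.49 for Kcnj6 and 1.03 for Kcnj5 (GIRK4).

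**Figure D1:**
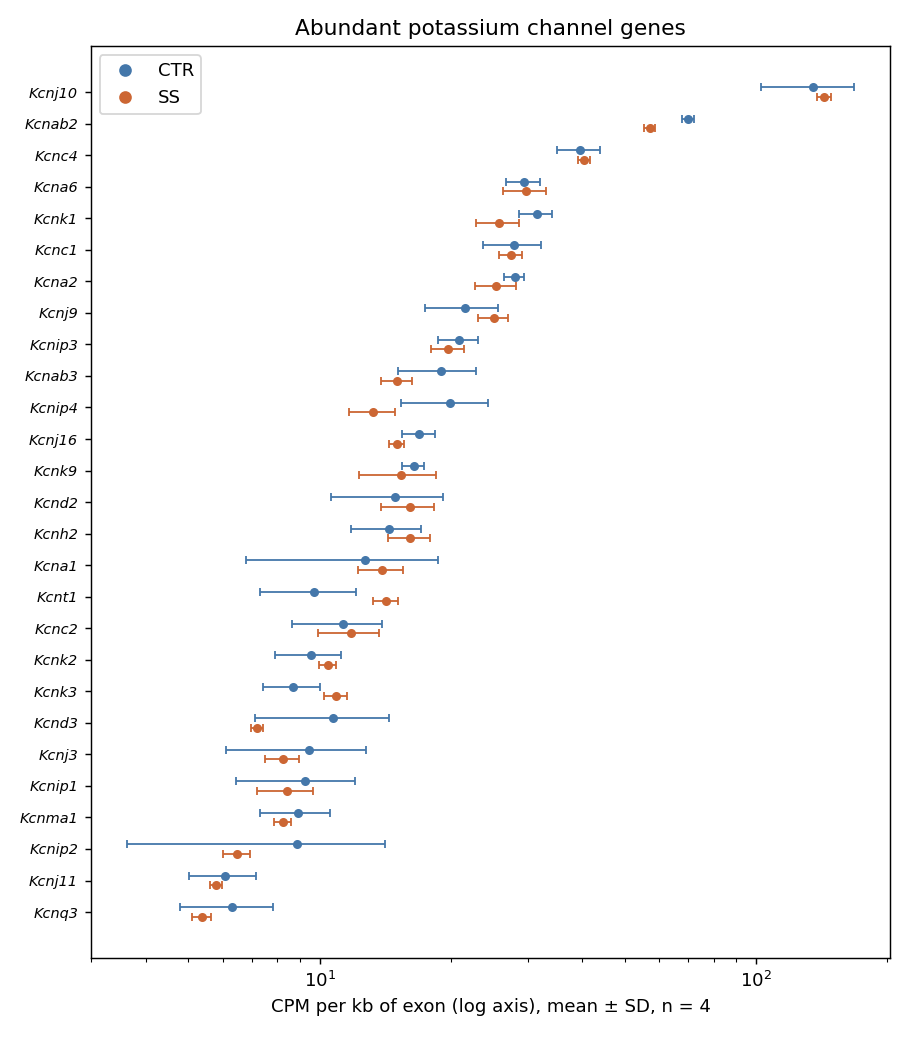
Level of abundant potassium channel genes on a log axis, in CPM per kb of exon; points are means and bars SD over 4 CTR (blue) or 4 SS (orange) libraries. Kcnj10 leads in both groups, and Kcnab2 is seen to the left in SS with bars that do not meet.

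The comparison of SS with CTR asked which potassium channel genes differed in the VTA after social stress. In edgeR, with Benjamini-Hochberg adjustment over all genes tested, 0 of 77 members had an adjusted p under 0.05 (smallest adjusted p = 0.459), against 0.0847% of the 16538 genes tested. With DESeq2, 2 of the 80 members it tested were called and both were lower in SS, Kcnab2 among them (adjusted p = 0.00127), against 0.31% of all genes in that direction. At an unadjusted p under 0.05 in edgeR, 11 members (14.3%) were lower in SS, against 3.7% of all genes, and 2 members (2.60%) were higher, against 2.85%. The SS and CTR values did not overlap, with SS lower, for 6 members (7.79%) against 2.21% of all genes, and with SS higher for 3 members (3.90%) against 2.47%. Members that pass the filter through a single group had to differ, and these counts were not tested. With any single library left out, 8 to 17 members were lower at this unadjusted p (17 without CTR-1), 1 to 3 were higher (1 without CTR-1, CTR-2, SS-2, SS-4 or SS-5), and DESeq2 called 0 members (without SS-4) to 3.

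Most members had a fitted log2 fold change near 0, as did most of all genes tested. The fitted log2 fold change (SS relative to CTR) was negative for 47 and positive for 30 members. Its median was -0.09, compared with 0.0037 over all genes tested. It lay within 0.25 of 0 for 55.8% of members and 59.8% of all genes. The SE of a member had a median of 0.23, so a fitted value in this range does not show that a difference was absent. By class the medians were -0.33 for auxiliary subunits, -0.33 for the electrically silent Kv subunits, -0.12 for calcium- and sodium-activated channels, -0.05 for inward rectifiers, 0.0010 for K2P channels, 0.02 for Kv1 to Kv4, 0.07 for Kv10 to Kv12 and 0.11 for Kv7. Without CTR-5 the median over all members tested was -0.01 and that of the silent subunits -0.14.

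**Figure D2:**
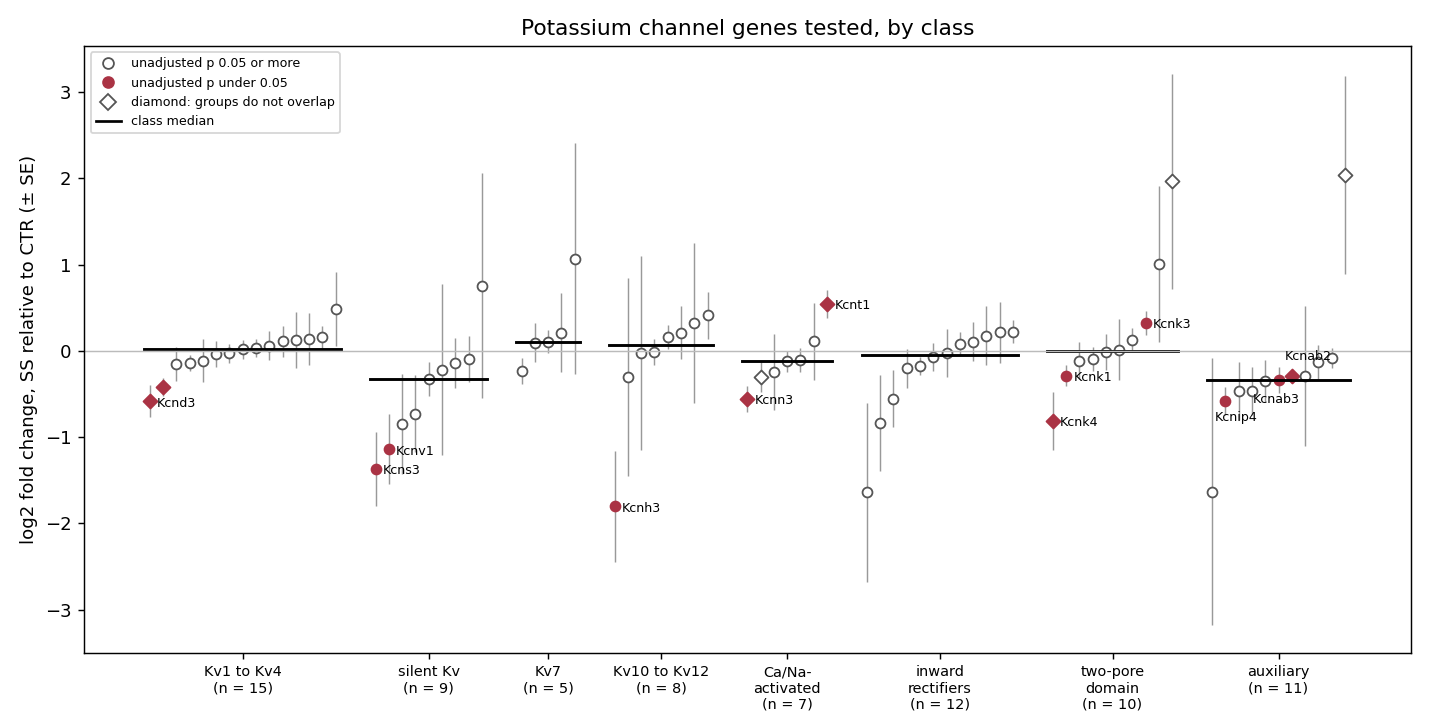
Fitted log2 fold change (SS relative to CTR, vertical axis) with SE for each of the 77 members tested, ordered within class; filled symbols have an unadjusted p under 0.05 in edgeR, diamonds mark groups that do not overlap and black lines are class medians. Auxiliary and silent subunits lie mostly below 0, and Kcnt1 and Kcnk3 are the filled symbols above 0.

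Of the 11 auxiliary subunits tested, 10 had a negative log2 fold change, against 8173 of the 16538 genes tested. Of these 10, 3 had an unadjusted p under 0.05 in edgeR, against 3.7% of all genes in that direction. These class counts were not tested. Kcnab2 encodes the Kv-beta-2 subunit, which binds Kv1 channels and takes part in their delivery to axons (chr4:152390742-152477871, minus strand). Its level was 381, 387, 409 and 385 CPM in CTR and 324, 328, 314 and 308 CPM in SS, with libraries given here and below in the order of their replicate numbers. Every SS library was below every CTR library, and both groups were tight (391 ± 12.3 against 318 ± 9.02 CPM, mean ± SD, n = 4). The log2 fold change was -0.30 (SE 0.07, edgeR p = 0.00156, adjusted p = 0.459), and an exact two-sided permutation test gave 0.0286, the smallest p that 4 against 4 libraries allow. With any 1 library left out it stayed between -0.31 and -0.28. DESeq2 lost the call without CTR-2 (adjusted p = 0.0565) or without SS-4 (adjusted p = 0.0996).

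The other beta subunits, named after their values were seen, overlapped between the groups. Kcnab3 had 54.5 ± 11.1 CPM in CTR and 43.2 ± 3.55 in SS (log2 fold change -0.33, SE 0.15, edgeR p = 0.0457, adjusted p = 0.755, exact permutation p = 0.0857). Kcnab1 had 24.7 ± 10.2 and 19.5 ± 2.50 CPM, with CTR-5 the highest at 40.0 (exact permutation p = 0.429).

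Kcnip genes encode KChIPs, the cytoplasmic calcium-binding partners of Kv4 channels. Kcnip4 (KChIP4) was at 91.7, 70.7, 51.7 and 74.1 CPM in CTR and at 50.2, 55.1, 45.0 and 42.2 in SS. CTR-3 was inside the SS range and the other 3 CTR libraries lay above it. This gave a log2 fold change of -0.58 (SE 0.17, edgeR p = 0.00454, adjusted p = 0.577, exact permutation p = 0.0571) and -0.38 without CTR-1 and CTR-2. Kcnip3 (KChIP3, also called DREAM), the most abundant of the stem per kb, differed by less than its spread, with 74.0 ± 7.64 CPM in CTR and 69.8 ± 6.07 in SS. Kcnip2 and Kcnip1 had log2 fold changes of -0.46 and -0.13 (exact permutation p = 0.686 and 0.800), and Kcnip2 reached 55.1 CPM in CTR-5 and 34.2 in CTR-2 but 13.2 to 24.0 in the other libraries. Of the BK channel beta subunits, Kcnmb4 had 14.8 ± 4.78 CPM in CTR and 10.7 ± 2.84 in SS (exact permutation p = 0.257). Kcnmb2 had 0, 0, 34 and 57 counts in CTR and 117, 131, 91 and 85 in SS, so that the CTR libraries without a count were CTR-1 and CTR-2, those with the most low genes at 0. Summed over all 15 auxiliary members, the level was 713 to 738 CPM in CTR and 572 to 604 in SS. Kcnab2 alone made up 391 of the mean 722 CPM in CTR and 318 of the mean 589 CPM in SS. The sum is therefore not separate from the difference in Kcnab2.

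**Figure D3:**
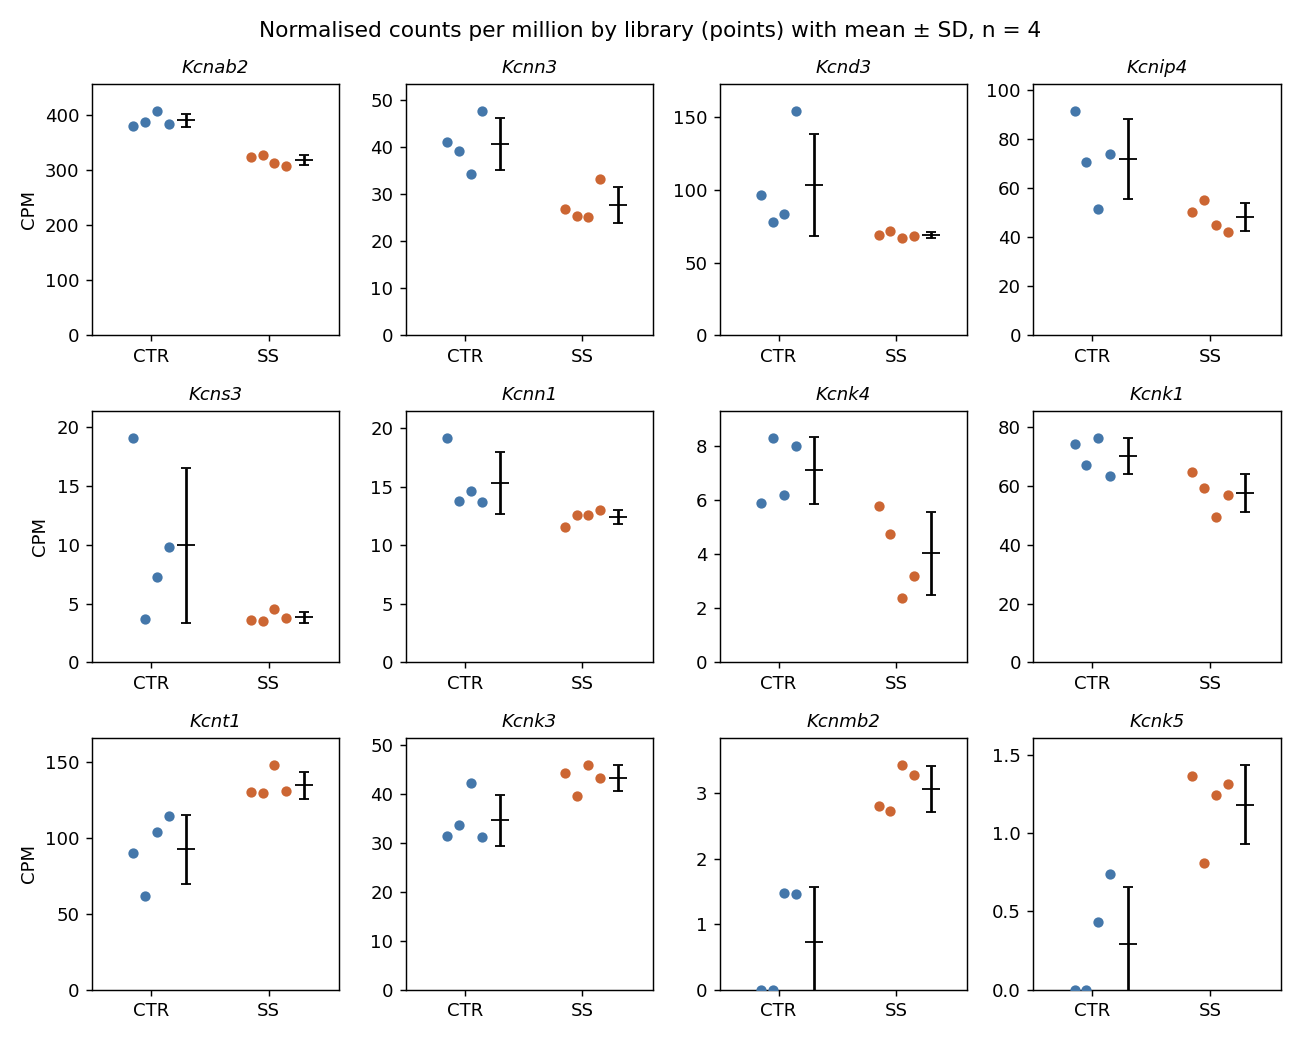
Normalised CPM by library (points, vertical axis from 0) for 12 members, with mean and SD of 4 CTR (blue) and 4 SS (orange) libraries in the order of their replicate numbers. Kcnab2, Kcnn3, Kcnd3, Kcnn1 and Kcnk4 are lower in all SS libraries, Kcnt1, Kcnmb2 and Kcnk5 are higher in all of them, and Kcnip4, Kcns3, Kcnk1 and Kcnk3 overlap.

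Kv3 channels open at high voltages and close fast, which allows rapid spiking. Of the Kv3 genes, Kcnc1, Kcnc4 and Kcnc2 differed between the groups by less than their SEs. Kcnc1 (Kv3.1) had 264 ± 40.1 CPM in CTR and 259 ± 15.8 in SS, Kcnc4 (Kv3.4) had 145 ± 16.3 and 148 ± 4.66, and Kcnc2 (Kv3.2) had 80.6 ± 18.8 and 84.1 ± 13.4. Their log2 fold changes were -0.03, 0.03 and 0.06, with SEs of 0.11, 0.10 and 0.17.

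Kcnd3 encodes Kv4.3, the A-type channel of dopamine neurons (chr3:105452330-105674002, plus strand). It was measured at 96.4, 78.1, 83.6 and 155 CPM in CTR and at 68.7, 71.6, 66.7 and 68.7 in SS. All SS libraries lay below all CTR libraries, and CTR-5 was far above the other controls. The log2 fold change was -0.58 (SE 0.19, edgeR p = 0.00929, adjusted p = 0.701, exact permutation p = 0.0286) and -0.32 without CTR-5. Kcnd2 (Kv4.2), with 76.8 ± 22.1 CPM in CTR and 82.9 ± 11.5 in SS, showed no difference beyond its spread. The axonal Kv1 subunits were close as well. Kcna2 had 333 ± 17.5 CPM in CTR and 303 ± 32.2 in SS (log2 fold change -0.14, SE 0.09), and Kcna6 had 175 ± 15.3 and 177 ± 19.7 (0.02, SE 0.11).

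Calcium- and sodium-activated channels held members in both directions. Kcnn3 encodes SK3, the SK channel most enriched in dopamine neurons (chr3:89520164-89675132, plus strand). Its level was 41.2, 39.2, 34.4 and 47.8 CPM in CTR and 26.9, 25.3, 25.2 and 33.3 in SS. The groups did not overlap, and SS-5 and CTR-3 were the closest libraries. The log2 fold change was -0.56 (SE 0.15, edgeR p = 0.00305, adjusted p = 0.514, exact permutation p = 0.0286; DESeq2 adjusted p = 0.0799). DESeq2 called it in the 6 libraries with male-typical sex transcripts, a fit in which it called 4.72% of all genes. Kcnn1 (SK1) had 19.2, 13.7, 14.6 and 13.7 CPM in CTR and 11.5, 12.6, 12.6 and 13.0 in SS. These values did not overlap (exact permutation p = 0.0286), but the log2 fold change of -0.30 (SE 0.18) had p = 0.118 in edgeR and was -0.17 without CTR-1. Kcnn2 (SK2) had 38.7 ± 5.08 CPM in CTR and 36.0 ± 4.21 in SS, and Kcnma1, the BK channel, had 152 ± 27.8 and 140 ± 6.41.

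Kcnt1 encodes Slack, a sodium-activated channel that contributes to the afterhyperpolarisation following trains of spikes (chr2:25863734-25918273, plus strand). Its level was 89.9, 61.4, 104 and 114 CPM in CTR and 130, 130, 148 and 131 in SS. It was the only member with both an unadjusted p under 0.05 and higher values in every SS than in every CTR library. The log2 fold change was 0.54 (SE 0.16, edgeR p = 0.00611, adjusted p = 0.650, exact permutation p = 0.0286; DESeq2 adjusted p = 0.150) and 0.30 without CTR-1 and CTR-2. DESeq2 called it in the 6 libraries with male-typical sex transcripts (4.72% of all genes called) and without CTR-5 (3.55%). Kcnt2 (Slick) had 5.84 ± 3.56 CPM in CTR and 6.32 ± 1.61 in SS.

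Of the 12 inward rectifiers tested, none had an unadjusted p under 0.05 in edgeR and in none did the groups separate. Kcnj10, which carries most of the potassium uptake of astrocytes, was at 541, 957, 766 and 662 CPM in CTR and at 774, 750, 815 and 761 in SS. The CTR libraries spread on both sides of the SS libraries (log2 fold change 0.08, SE 0.14). Kcnj6, the GIRK2 subunit of dopamine neurons (chr16:94748636-94997701, minus strand), was at 6.20, 16.8, 9.72 and 21.4 CPM in CTR and at 8.25, 10.9, 8.70 and 9.20 in SS. CTR-2 and CTR-5 were above the SS range, CTR-1 was below it, and the log2 fold change was -0.55 (SE 0.33, edgeR p = 0.122, exact permutation p = 0.343) or -0.24 without CTR-5. Kcnj9 had 92.2 ± 17.6 CPM in CTR and 108 ± 8.45 in SS (log2 fold change 0.22, SE 0.14), and Kcnj3 had 49.3 ± 17.4 and 42.9 ± 3.76. Kcnj11, the Kir6.2 pore of ATP-sensitive channels, had 22.3 ± 3.91 and 21.3 ± 0.678 CPM, and Kcnj8, the Kir6.1 pore of vascular cells, had 4.77 ± 1.08 and 5.55 ± 2.18. Kcnj13 (Kir7.1), a channel of the choroid plexus, had counts in CTR-5 (42) and SS-3 (13) and none in the other libraries. The choroid plexus and ependyma markers summed to 252 CPM in CTR-5 and 24.2 CPM in SS-3. Exons of Kcnj13 overlap those of Gigyf2 on the other strand, which had 18859 counts against 55 of Kcnj13. With no strand setting stated, the reads of this pair cannot be told apart.

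K2P channels carry the background potassium current at rest. Kcnk3 (TASK-1), open at resting potential and closed by acid, was at 31.4, 33.8, 42.2 and 31.1 CPM in CTR and at 44.4, 39.6, 45.9 and 43.2 in SS. CTR-3 lay within the SS range and the other CTR libraries below it (log2 fold change 0.32, SE 0.13, edgeR p = 0.0345, adjusted p = 0.755, exact permutation p = 0.0571). The antisense-strand gene Gm9899 overlaps its exons and collected 2537 counts against 9754 of Kcnk3, and with no strand setting stated the reads of the pair cannot be told apart. Kcnk1 was at 74.1, 67.1, 76.4 and 63.3 CPM in CTR and at 64.7, 59.4, 49.3 and 56.8 in SS, so that SS-2 overlapped CTR-5 (log2 fold change -0.29, SE 0.12, edgeR p = 0.0343, adjusted p = 0.755, exact permutation p = 0.0571). Kcnk9 (TASK-3), which can assemble with TASK-1, had 202 ± 11.8 CPM in CTR and 189 ± 38.2 in SS. Kcnk4 (TRAAK) had 5.89 to 8.32 CPM in CTR and 2.37 to 5.81 in SS (log2 fold change -0.81, SE 0.34, edgeR p = 0.0347, adjusted p = 0.755, exact permutation p = 0.0286), and it overlaps exons of Catsperz on the same strand, which had 358 counts against its 1398. Kcnk5 (TASK-2) had 0, 0, 10 and 29 counts in CTR and 57, 39, 33 and 34 in SS, again with none in CTR-1 and CTR-2. Kcnk13 (THIK-1), found in microglia together with Kcnk6 (TWIK-2), had 17.6 ± 5.00 CPM in CTR and 16.3 ± 2.37 in SS. Kcnk6 had 73, 0, 31 and 113 counts in CTR and 189, 99, 116 and 133 in SS.

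Electrically silent subunits form no channel alone and modify Kv2 channels. Of the 9 tested, 8 had a negative log2 fold change, against 8173 of the 16538 genes tested. Of these 8, 2 had an unadjusted p under 0.05, against 3.7% of all genes in that direction. These class counts were not tested. Kcns3 (Kv9.3) was at 19.1, 3.68, 7.26 and 9.83 CPM in CTR and at 3.59, 3.53, 4.56 and 3.77 in SS. CTR-1 was highest and CTR-2 lay within the SS range (log2 fold change -1.37, SE 0.43, edgeR p = 0.00777, adjusted p = 0.697, exact permutation p = 0.0857, and -0.85 without CTR-1). Kcnv1 (Kv8.1) was at 6.72, 10.9, 4.36 and 14.5 CPM in CTR and at 5.12, 4.48, 4.75 and 2.20 in SS (log2 fold change -1.14, SE 0.40, edgeR p = 0.0157, adjusted p = 0.746, exact permutation p = 0.114). CTR-5 and CTR-2, the libraries with the most counts of cortex and hippocampus markers, were its highest. Kcnh3 (Kv12.2), named after its values were seen, followed the same libraries with 17.8 CPM in CTR-2 and 12.7 in CTR-5 against 0.640 to 6.16 in the others (log2 fold change -1.80, SE 0.65, edgeR p = 0.0166, adjusted p = 0.746, exact permutation p = 0.0857). Its exons overlap those of Mcrs1, which had 5650 counts against 1498 of Kcnh3. The part of either in these results was not tested.

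The log2 fold change lay within 0.25 of 0 for 4 of the 5 Kv7 genes and 4 of the 8 Kv10 to Kv12 genes, and Kcnh3 alone among them had an unadjusted p under 0.05. Kcnq3, whose product contributes to the M-current that limits repetitive firing, had 92.7 ± 22.2 CPM in CTR and 79.0 ± 3.93 in SS (log2 fold change -0.23, SE 0.15). Kcnh2 (ERG1) had 69.9 ± 12.8 and 78.1 ± 8.55 CPM (log2 fold change 0.16, SE 0.14). Outside that range besides Kcnh3, and named after their values were seen, were Kcnq1 (log2 fold change 1.07, SE 1.34), Kcnh7 (0.41, SE 0.27), Kcnh5 (0.32, SE 0.93) and Kcnh4 (-0.30, SE 1.15). Exons of Kcnq1 overlap those of Kcnq1ot1 on the other strand (5685 counts against 145 of Kcnq1). Exons of Kcnh7 overlap those of Gca on the other strand (2630 counts against 6233 of Kcnh7). With no strand setting stated, the reads of each pair cannot be told apart.

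Partners of these channels whose symbols the rule does not take were read from a list of 22 genes, including the sulphonylurea receptors, DPP partners of Kv4, anchoring proteins of axonal Kv1 channels and regulators of GIRK signalling. In the same fit 20 were tested, 9 with a negative and 11 with a positive log2 fold change and a median of 0.07. At an unadjusted p under 0.05, 2 were lower and 2 higher in SS, against 3.7% and 2.85% of all genes. None passed adjustment, against 0.0847% of all genes, and these counts were not tested. Cntn2 (contactin-2, which clusters axonal Kv1 channels) was the 1 of these whose groups did not overlap. Among all genes, 2.47% did not overlap with SS higher. The log2 fold change of Cntn2 was 0.19 (SE 0.09, edgeR adjusted p = 0.755 after Benjamini-Hochberg adjustment). Dpp6 and Dpp10, the DPP partners of Kv4, had log2 fold changes of 0.06 (SE 0.07) and 0.19 (SE 0.11).

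Markers of cell types moved with some of these genes. The summed level of 10 dopamine neuron markers was 789 to 1760 CPM in CTR and 168 to 279 in SS. In edgeR 9 of the 10 had a negative log2 fold change and 5 were called, against 0.0847% of all genes. Th (log2 fold change -3.99, SE 0.35) and Slc6a3 (-6.22, SE 0.51) were among the 5, while Nr4a2 (0.16, SE 0.19) and Lmx1b (-0.13, SE 0.17) were near 0. Kcnn3, Kcnd3, Kcnip4 and Kcns3 were lower beside this sum, and CTR-1 and CTR-5, the libraries with the most dopamine marker counts, held the 2 highest values of each of the 4 genes. This order was not particular to them. Kcna2, and Kcna4 and Kcnd1, named after their values were seen, also had their 2 highest values in CTR-1 and CTR-5. Their log2 fold changes were -0.14 (SE 0.09), -0.04 (SE 0.15) and -0.11 (SE 0.25). Kcnj6 did not order this way, since CTR-1 was its lowest library. Among other members lower in every SS library, Kcnab2 and Kcnk4 had their lowest CTR value in CTR-1 (381 and 5.89 CPM). Kcnn1 was highest in CTR-1 (19.2 CPM) but low among the controls in CTR-5 (13.7 CPM). CTR-5 also held the most counts of cortex and hippocampus markers (1034 CPM). Fewer cells of a type, less RNA per cell and a different share of a region caught by the punch cannot be told apart in bulk punches. In immunostained sections of other mice, the paper found no significant difference between CTR and SS in the number of TH-positive VTA neurons. That count does not give the number of such neurons in each punch. The 6 markers of fast-spiking and large projection neurons all had a negative log2 fold change, with a sum of 699 to 948 CPM in CTR and 537 to 701 in SS. Among them Pvalb had 49.1 ± 21.8 CPM in CTR and 21.4 ± 4.97 in SS, and Nefh had 203 ± 31.0 and 150 ± 6.80. Kcnc1 and Kcnc2, which such neurons express, differed by less than their SEs as given above. The part of the cell type markers in the channel results was not tested.

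**Figure D4:**
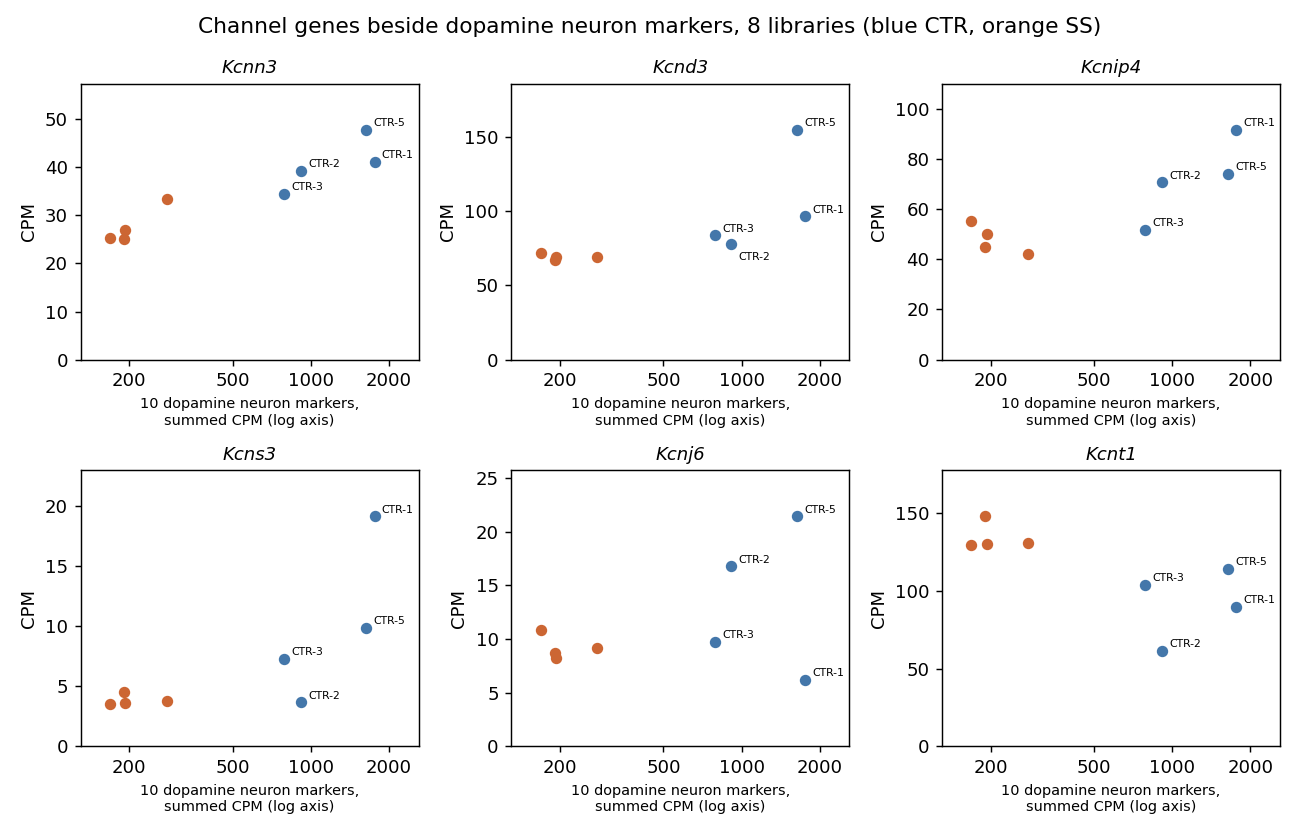
CPM of 6 channel genes (vertical axes, from 0) against the summed CPM of 10 dopamine neuron markers (horizontal axes, log scale) in 8 libraries, CTR blue (named) and SS orange. The groups are far apart on the horizontal axis. Kcnn3, Kcnd3, Kcnip4 and Kcns3 have their highest values in CTR-1 and CTR-5, the libraries with the highest marker sums. Kcnj6 is lowest in CTR-1, and Kcnt1 is highest in the SS libraries.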

How the data were processed

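The authors used Cutadapt to trim single-end reads, STAR to align them (mm10) and HTSeq with an Ensembl annotation to count reads per gene. They deposited whole counts without normalization. The strand setting is not given in the sources used here. Groups were taken from the labels, and the study's design text names more mice than the 4 per group analysed here. The paper assigned litters, not single pups, to CTR or SS, and libraries of a group may come from the same litter. Whether the replicate numbers mark litters is not given. The p-values therefore measure the spread between these mice and not between litters.

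In R 4.3.3, genes were filtered with filterByExpr of edgeR 4.0.16 (minimum count 10, minimum total count 15), normalized with TMM and tested by glmQLFit followed by glmQLFTest (default options; model of group alone), and p-values were adjusted over all genes tested by the Benjamini-Hochberg method (threshold 0.05). SE is the absolute log2 fold change over the square root of F. An exact two-sided permutation test used the 70 assignments of log2 CPM (prior count 2). DESeq2 1.42.0 and limma 3.58.1 (voom) were alternatives, and the tests were checked on simulated data. Positions, exon lengths and coding sequences came from GENCODE M21 (GRCm38), matched by symbol.

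The members, classes and lists were chosen with earlier results of these data known. Named members were those called by edgeR or DESeq2, those without overlap between groups, the most abundant of each stem per kb, and a list with known midbrain roles. Values of a few selected members were left out of the text. Others are marked as named after their values were seen.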

Additional observations from a re-analysis of the deposited data

Results flagged for a closer look

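In 6 of the 82 groups of 4 values examined, 1 library stood far from the other 3 by Dixon's ratio, the gap to the nearest value over the range, and chance alone gives about 4.1. Kcnj13 had counts in a single library of each group, CTR-5 and SS-3, which fixes the ratio at 1 in both. Its flags therefore cannot be set against the number given by chance. Kcnma1 was highest in CTR-5 (193 CPM against 134 to 143 in the other controls, ratio 0.839). Kcnn2 was highest in the same library (46.4 CPM against 36.2 to 36.3, ratio 0.988). Kcnn1 was highest in CTR-1 (19.2 CPM against 13.7 to 14.6, ratio 0.836). Kcnt1 was highest in SS-4 (148 CPM against 130 to 131 in the other SS libraries, ratio 0.941).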

How the results depend on the processing

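The edgeR count of 0 members at an adjusted p under 0.05 was the same with limma voom, the bias-adjusted estimate, both other normalizations, both other filters, both reduced sets of libraries and each library left out, and DESeq2 called 2. Leaving out 1 library, DESeq2 called 0 to 3 members and 0.197% to 3.55% of all genes (3.55% without CTR-5), adding Kcns3 without CTR-2, Kcnip4 and Kcnn3 without CTR-3, Kcnt1 without CTR-5, and Kcnh3 and Kcnn3 without SS-5. In the 6 libraries with male-typical sex transcripts it called 4 (Kcnab2, Kcnn3 and Kcnt1 among them) beside 4.72% of all genes, and without CTR-1 and CTR-2 it called 3 (Kcnab2 and Kcnd3 among them) beside 0.732%; these DESeq2 fits on fewer libraries were chosen after seeing the data, and both reduced sets with earlier results of these data known. At an unadjusted p under 0.05, 4 members were higher in SS with limma voom (4.35% of all genes) and 4 with the bias-adjusted estimate (3.67%), and 17 were lower without CTR-1 and CTR-2 (3.61%). Single libraries left out gave 8 to 17 lower (2.06% to 6.59% of all genes) and 1 to 3 higher (1.47% to 6.80%). Members whose groups did not overlap were 11 lower and 5 higher in the 6 libraries (9.34% and 10.7% of all genes), 13 lower without CTR-1 and CTR-2 (7.51%), and 6 to 10 lower (2.76% to 7.02%) and 3 to 5 higher (3.58% to 7.95%) with 1 library left out. The class median was 0.37 for Kv10 to Kv12 with limma voom, 0.10 for K2P genes in the 6 libraries and -0.13 for Kv1 to Kv4 without CTR-1 and CTR-2. Of 718 comparisons of the 40 named members tested and reported, 678 kept direction and side of the threshold, 1 passed it in DESeq2 and 39 changed sign, over 17 genes, none of which was called. In the 6 libraries the log2 fold changes that changed sign were Kcnc1 0.010, Kcnc4 -0.020, Kcnj3 0.040, Kcnj5 -0.14, Kcnk9 0.036, Kcnma1 0.035 and Kcns2 0.22. Without CTR-1 and CTR-2 they were Kcnc2 -0.13, Kcnd2 -0.13, Kcnf1 0.11, Kcnip3 0.021 and Kcnj11 0.12. With the replicate number as a block, where 0 members and 9 of all genes were called, they were Kcnc2 -0.044, Kcnj10 -0.045, Kcnj8 -0.17, Kcnk13 0.0029 and Kcns2 0.043. The block is no pairing here: the numbers 2, 3 and 5 are shared by both groups, and same-numbered libraries correlated by -0.0062, -0.0077 and 0.060 in their deviations from the group means. With each library left out, the log2 fold changes ranged as follows for the genes that changed sign: Kcnc2 -0.044 to 0.23, Kcnj10 -0.036 to 0.24, Kcna6 -0.020 to 0.092, Kcnd2 -0.021 to 0.32, Kcnf1 -0.27 to 0.26, Kcnj11 -0.16 to 0.046, Kcnc1 -0.11 to 0.062, Kcne4 -0.68 to 0.061, Kcnk13 -0.25 to 0.077, Kcnc4 -0.041 to 0.077, Kcnj3 -0.40 to 0.0069, Kcnma1 -0.18 to 0.018, Kcns2 -0.37 to 0.12, Kcnj8 -0.035 to 0.38, Kcnj5 -0.044 to 0.29 and Kcnk9 -0.17 to 0.042. The cause of these changes was not tested. With 4 libraries per group and a biological coefficient of variation of 0.384, the SE of a member's log2 fold change had a median of 0.23.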
